A study of Mus musculus with 5 samples.

Results

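The effect of dietary fat on anti-ACAA2 chromatin signal was described in sham-operated mouse hearts, as the ratio of the 60 kcal% fat diet to the 10 kcal% fat diet in all 3885 of the 3885 merged regions of the study. Chromatin immunoprecipitation and sequencing (ChIP-seq) was done on whole hearts of male C57BL/6J mice aged 12 weeks. The mice ate a diet with 60 kcal% or 10 kcal% fat for 4 days, had sham surgery, and stayed on their diet for 1 more week. Hearts of mice on the same diets that had transverse aortic constriction (TAC), which loads the left ventricle with pressure, are set beside them. No group carries a mutation or a transgene. There is 1 library for each group, from a pool of 3 by its label, so no value below has a replicate, an SD or a test, and the spread between hearts is not known. The library labels, the series title and the design name anti-ACAA2, whereas the extraction protocol speaks of antibodies to butyrylated and acetylated lysine 9 of histone H3. The values are described here under the name on the library labels. Whole hearts hold cardiomyocytes, endothelial cells, fibroblasts and other cells, and in such samples a smaller share of a cell type and a lower signal per cell cannot be told apart.

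ACAA2 is the mitochondrial 3-ketoacyl-CoA thiolase, which cleaves the last bond in each turn of fatty acid beta-oxidation and releases acetyl-CoA. The heart takes most of its energy from fatty acids, and dietary fat raises their supply. Fatty acids activate the nuclear receptor PPARalpha, whose textbook targets include the carnitine palmitoyltransferases, uncoupling proteins and lipid droplet proteins. Acetyl-CoA is also the donor for histone acetylation.

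The regions lay mostly at gene starts, so the DNA itself is shown for 6 named regions that cover most of a promoter or the start of a well known cardiac regulator. The first 3 regions had more signal on 60% fat and the last 3 had less, relative to all regions. The sequences are RefSeq promoter windows of GRCm38.p6, the assembly behind mm10, from 250 bases before to 50 bases after a gene start, 5′ to 3′ on the gene's strand. Capitals mark the bases inside the merged region of the study; the edges can be off by a base because the counting of starts is not given in the sources used here. Mga, a MAX-binding transcription factor, is shown at chr2:119896978-119897277 on the plus strand, and Tceb3, which RefSeq names Eloa and which encodes elongin A, at chr4:136021600-136021899 on the minus strand. Commd9 is shown at chr2:101886012-101886311 on the plus strand. Dcaf10, a substrate receptor of CUL4 ubiquitin ligases, is shown at chr4:45341851-45342150 on the plus strand, and Ddx47, an RNA helicase of ribosome biogenesis, at chr6:135011362-135011661 on the plus strand. Srf, the serum response factor that drives sarcomere and immediate early genes, is shown at chr17:46556113-46556412 on the minus strand.
Mga: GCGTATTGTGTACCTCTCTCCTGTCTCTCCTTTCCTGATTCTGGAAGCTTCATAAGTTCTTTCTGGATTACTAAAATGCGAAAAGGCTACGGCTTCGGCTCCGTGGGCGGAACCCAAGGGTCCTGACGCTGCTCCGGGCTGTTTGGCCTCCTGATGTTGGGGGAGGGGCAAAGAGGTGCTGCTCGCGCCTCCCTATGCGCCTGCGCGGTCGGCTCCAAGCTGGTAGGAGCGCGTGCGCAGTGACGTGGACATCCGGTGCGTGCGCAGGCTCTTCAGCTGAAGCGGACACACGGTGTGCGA
Eloa: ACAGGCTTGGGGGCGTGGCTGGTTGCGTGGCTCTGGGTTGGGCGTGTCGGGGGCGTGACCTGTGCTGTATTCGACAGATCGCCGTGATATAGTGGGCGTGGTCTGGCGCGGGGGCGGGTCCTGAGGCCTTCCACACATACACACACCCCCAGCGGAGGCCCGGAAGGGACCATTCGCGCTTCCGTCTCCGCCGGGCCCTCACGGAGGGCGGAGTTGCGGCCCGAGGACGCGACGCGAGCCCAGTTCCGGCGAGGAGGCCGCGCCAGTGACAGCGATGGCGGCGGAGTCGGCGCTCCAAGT
Commd9: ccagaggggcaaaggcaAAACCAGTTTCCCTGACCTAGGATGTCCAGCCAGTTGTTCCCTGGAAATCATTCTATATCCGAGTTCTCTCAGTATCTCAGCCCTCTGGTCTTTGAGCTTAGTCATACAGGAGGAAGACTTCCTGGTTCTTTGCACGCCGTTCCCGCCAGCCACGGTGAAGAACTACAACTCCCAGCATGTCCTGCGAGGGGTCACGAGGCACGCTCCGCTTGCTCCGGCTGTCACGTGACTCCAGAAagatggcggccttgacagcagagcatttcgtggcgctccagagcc
Dcaf10: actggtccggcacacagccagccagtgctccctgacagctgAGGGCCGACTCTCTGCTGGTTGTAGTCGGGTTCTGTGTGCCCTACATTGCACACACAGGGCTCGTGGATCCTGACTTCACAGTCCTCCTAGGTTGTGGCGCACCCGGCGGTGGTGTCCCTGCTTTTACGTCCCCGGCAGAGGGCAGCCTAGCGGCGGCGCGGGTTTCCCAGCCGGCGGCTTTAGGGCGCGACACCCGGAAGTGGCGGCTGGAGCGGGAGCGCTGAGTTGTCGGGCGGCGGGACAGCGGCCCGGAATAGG
Ddx47: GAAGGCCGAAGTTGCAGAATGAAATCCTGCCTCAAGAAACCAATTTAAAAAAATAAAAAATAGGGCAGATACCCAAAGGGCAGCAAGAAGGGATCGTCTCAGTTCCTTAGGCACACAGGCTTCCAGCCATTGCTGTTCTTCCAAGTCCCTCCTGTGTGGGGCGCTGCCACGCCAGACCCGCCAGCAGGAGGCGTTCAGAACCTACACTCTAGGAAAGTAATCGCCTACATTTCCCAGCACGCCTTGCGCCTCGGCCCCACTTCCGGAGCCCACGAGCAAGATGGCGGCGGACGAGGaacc
Srf: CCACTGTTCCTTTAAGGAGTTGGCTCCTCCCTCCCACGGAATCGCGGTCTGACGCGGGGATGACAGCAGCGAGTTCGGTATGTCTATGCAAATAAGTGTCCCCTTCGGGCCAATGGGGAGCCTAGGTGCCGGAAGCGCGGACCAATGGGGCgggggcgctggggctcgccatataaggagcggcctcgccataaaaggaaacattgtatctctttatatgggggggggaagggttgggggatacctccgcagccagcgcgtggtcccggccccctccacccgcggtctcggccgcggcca
The merged regions covered 300, 300 and 238 of the 300 bases at Mga, Eloa and Commd9, and 259, 296 and 151 of the 300 bases at Dcaf10, Ddx47 and Srf. By GC content the windows did not part by direction, with 60%, 70% and 56% at Mga, Eloa and Commd9, against 67%, 55% and 63.3% at Dcaf10, Ddx47 and Srf. The GC box letters GGGCGG stood in the windows of Mga, Eloa, Dcaf10 and Srf on either strand, so in windows of both directions.

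Signal over the regions was lower on 60% fat as a whole. The average signal, which is the mean pileup of fragments over a region, had a median of 7.29 in sham hearts on 60% fat, against 11.8 in sham hearts on 10% fat. It was lower on 60% fat in 3110 regions (80.1%), higher in 747 and equal in 28. The log2 ratio of 60% over 10% fat, with a pseudocount of 1 added to both signals, had a median of -0.57 (95% interval over regions -0.60 to -0.54), which is a ratio of 0.672. Summed over the regions, the libraries held an estimated 49593 fragments on 60% fat and 75313 on 10% fat, a ratio of 0.658. The depth outside the regions is not given in the sources used here, so a difference in sequencing depth and a general difference in binding cannot be told apart. The size of the median log2 ratio also depended on which regions were taken, as given by call below. All ratios below are therefore centred on that median, and "higher" or "lower" means relative to all regions.

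After centring, the middle 50% of regions lay between -0.42 and 0.44, and the extremes were -2.64 and 3.18. The 2-fold line was passed upward by 321 regions (8.26%) and downward by 266 (6.85%) on 60% fat. Without centring, 78 regions passed it upward and 962 downward. The 5 regions just inside the 2-fold line lay at 1.00 to 1.00 on the higher side and the 5 just outside at 0.99 to 1.00. On the lower side the 5 just inside lay at -1.01 to -1.0 and the 5 just outside at -1.0 to -0.996. A median region held only 10.4 estimated fragments on 60% fat and 16.3 on 10% fat. The counting interval of a ratio, computed as an exact Clopper-Pearson interval from its fragments, spanned a median of 2.59 log2 units. Unlike the ratio it uses no pseudocount, and it is set against the all-region median log2 ratio without one, -0.64. It covers counting error only, because reads of amplified libraries with no molecular identifiers can be copies of each other. Of all regions, 164 (4.22%) were 2-fold higher with an interval wholly above the all-region ratio, and 103 (2.65%) were 2-fold lower with an interval wholly below it. The intervals make no allowance for the number of regions.

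**Figure D1:**
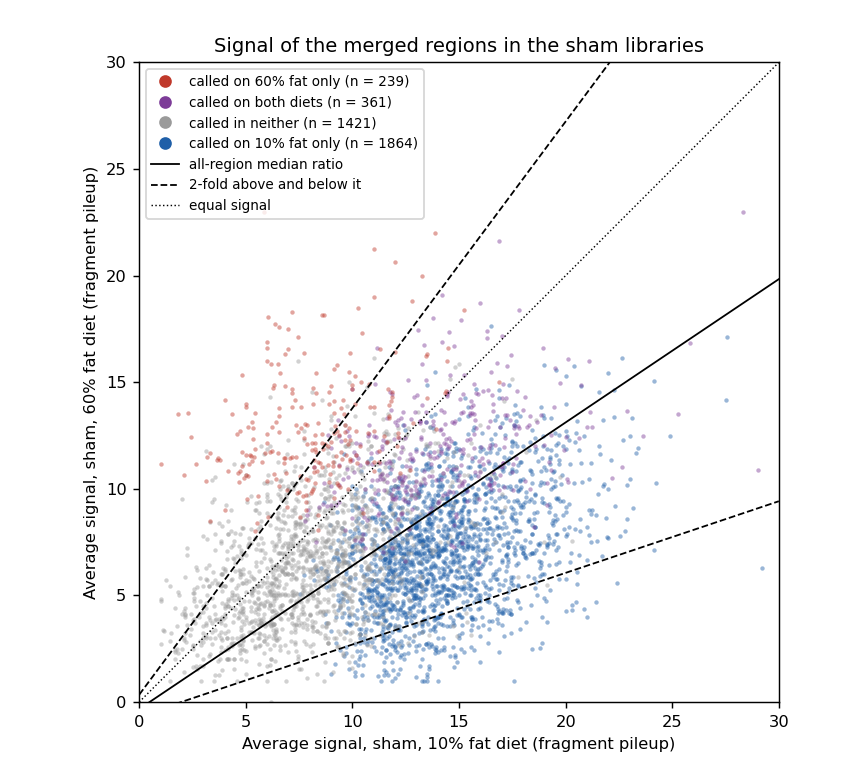
Average signal (fragment pileup) of each of 3885 regions in the sham library on 60% fat (vertical axis) and on 10% fat (horizontal axis), coloured by which sham library carried a called interval. Most points lie under the dotted line of equal signal, and the solid line marks the all-region median ratio of 0.672 with the dashed lines 2-fold above and below it.

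The ratio of a region followed the library in which the authors had called it. The 60% fat library carried a called interval in 600 regions (15.4%) and the 10% fat library in 2225 (57.3%). Of the 239 regions called on 60% fat only, 148 were 2-fold higher and 0 were 2-fold lower, with a median centred log2 ratio of 1.13 (1.06 to 1.23) and median signals of 12.4 on 60% fat and 8.17 on 10% fat. Of the 1864 regions called on 10% fat only, 0 were 2-fold higher and 236 were 2-fold lower, with a median of -0.34 (-0.37 to -0.32) and signals of 7 on 60% fat and 14.0 on 10% fat. Few regions with a call on both diets were 2-fold. Of these 361, 4 were 2-fold higher and 0 lower, with a median of 0.34 (0.30 to 0.38), and signals were 11.6 on 60% fat and 14.1 on 10% fat. The 1421 regions called in neither sham library, which entered the table through a TAC library, had a median of 0.31, with 169 higher and 30 lower. Their signals were 6.18 on 60% fat and 7.71 on 10% fat. Before centring, the median log2 ratio was 0.56 in regions called on 60% fat only and -0.92 in those called on 10% fat only. It was -0.23 in regions called on both diets and -0.26 in those called in neither. Both of these sets thus had less signal on 60% fat, though their centred medians were above 0.

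Read from the other side, 148 of the 321 higher regions were called on 60% fat only, 4 on both diets, 169 in neither and 0 on 10% fat only. Of the 266 lower regions, 236 were called on 10% fat only and 30 in neither. Regions called in all 4 libraries, TAC included, numbered 160, and 0 of them were 2-fold higher and 0 were 2-fold lower. Their median log2 ratio before centring was -0.30. The 130 regions called in the sham 60% fat library alone of the 4 had a median of 1.40 with 100 higher, and the 1068 called in the sham 10% fat library alone had a median of -0.49 with 208 lower. A region entered the table because at least 1 library was high there, and how much of these ratios comes from that entry was not tested.

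**Figure D2:**
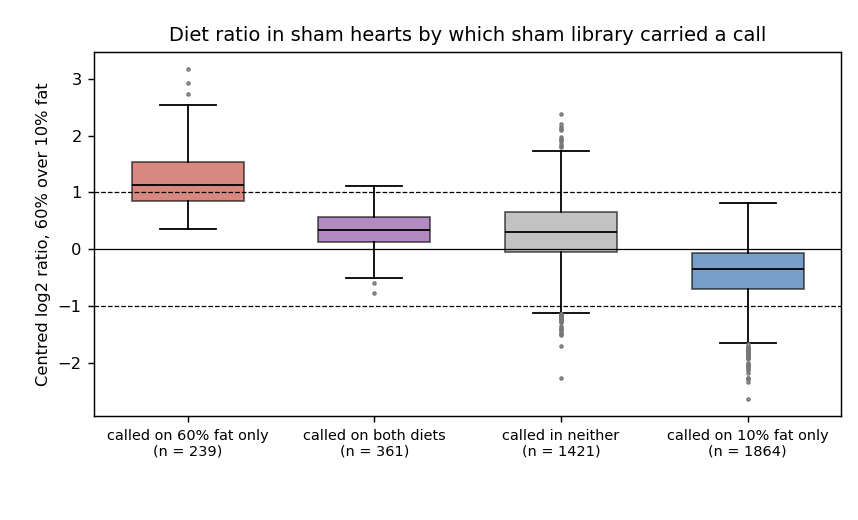
Centred log2 ratio of the average signal, 60% over 10% fat in sham hearts, for regions grouped by the sham library that carried a called interval. Boxes span the quartiles with the median as a line, whiskers reach 1.5 times the box height at most, dots are regions beyond them, and the dashed lines mark 2-fold. The median is 1.13 for regions called on 60% fat only, 0.34 for those called on both diets, 0.31 for those called in neither and -0.34 for those called on 10% fat only.

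The highest centred ratio of all lay in a 203-bp region on chromosome 10, 53334668 to 53334871 in mm10. It stands 2917 bp upstream of Pln, which encodes phospholamban, the inhibitor of the sarcoplasmic reticulum calcium pump, and within the gene Cep85l. Its signal was 11.2 on 60% fat and 1.0 on 10% fat in sham hearts, and 2.33 on 60% fat and 1.17 on 10% fat in TAC hearts. The sham library on 60% fat thus stood alone. The centred log2 ratio was 3.18, with a counting interval of 1.15 to 9.40 that rests on 10.1 estimated fragments on 60% fat and 0.906 on 10% fat.

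Among regions assigned to a single gene, the 12 with the highest ratios were at Cebpg, Ncoa7, Commd9, Itpr1, Ccdc171, Camk2g, Dcaf8, Lipt2, Mga, Tceb3, Snai1 and Ung, with 2.93 to 1.65. Their signals lay between 12.3 and 17.5 on 60% fat and between 1.83 and 7.43 on 10% fat, so the diets did not overlap; these regions were picked by that contrast. All 12 were called on 60% fat and not on 10% fat in sham hearts, and 2 of the 12 were called in a TAC library. Of the 12, 9 held a promoter and 7 a CpG island. Of all 3885 regions, 239 were called on 60% fat only and 2615 in a TAC library. A promoter was held by 82.6% of all regions and a CpG island by 73.7%. At Cebpg, which encodes the bZIP transcription factor C/EBP gamma, the region lay 348 bp upstream of the start on chromosome 7, 35056813 to 35057016. Its signal was 13.5 on 60% fat and 1.83 on 10% fat in sham hearts, and 4.83 on 60% fat and 2.5 on 10% fat in TAC hearts, for a centred ratio of 2.93 (1.06 to 6.42). Again only the sham library on 60% fat was high.

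Itpr1, the inositol trisphosphate receptor that releases calcium from internal stores, had 12.7 on 60% fat and 4.71 on 10% fat in sham hearts, and 11.7 on 60% fat and 13.6 on 10% fat in TAC hearts, at 225 bp upstream of its start. The centred ratio was 1.84 (0.44 to 3.86), and here it was the sham library on 10% fat that stood below the other 3. Camk2g, a subunit of the calcium/calmodulin kinase CaMKII, had 13.1 on 60% fat and 5.29 on 10% fat in sham hearts in a region inside the gene, a ratio of 1.74 (0.29 to 3.76). Its other region, shared with Ndst2 and 111 bp into that gene, had 9.13 on 60% fat and 13.9 on 10% fat. Before centring, signal there was thus lower on 60% fat, as in 80.1% of all regions. Snai1, the repressor of epithelial genes, had 17.1 on 60% fat and 7.43 on 10% fat in sham hearts, with a ratio of 1.68 (0.53 to 3.22). In TAC hearts it had 8.43 on 60% fat and 3.14 on 10% fat, so signal was higher on 60% fat after either operation. Mga, whose promoter is printed above, had the best counted ratio of the 12, with 48.4 estimated fragments on 60% fat and 20.6 on 10% fat and a ratio of 1.69 (1.06 to 2.64). Lipt2, of the pathway that supplies the lipoyl cofactor of pyruvate dehydrogenase, had 12.8 on 60% fat and 5.33 on 10% fat, a ratio of 1.70 (0.29 to 3.76).

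The lowest ratio of all lay at Atg14, whose product starts autophagosome formation, 123 bp into the gene on chromosome 14, 47568202 to 47568421. Its signal was 1.0 on 60% fat and 17.6 on 10% fat in sham hearts, and 8.57 on 60% fat and 8.86 on 10% fat in TAC hearts. The sham libraries thus lay on either side of both TAC libraries. The centred ratio was -2.64 (-8.83 to -0.78), from 0.978 estimated fragments on 60% fat and 17.2 on 10% fat.

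The 11 lowest single-gene regions described here were at Ank3, Fam154a, Spty2d1, Slc25a4, Fndc3b, Cdc14a, Dcaf10, Cyp2j6, Arid1a, Rad21 and Ddx47, with -2.28 to -1.73. Their signals lay between 1 and 2.5 on 60% fat and between 12.2 and 18.4 on 10% fat. These regions, too, were picked by the sham contrast. All 11 were called on 10% fat and not on 60% fat in sham hearts, and 0 of the 11 were called in a TAC library. A promoter was held by 8 of them and a CpG island by 3. Of all 3885 regions, 1864 were called on 10% fat only and 2615 in a TAC library. A promoter was held by 82.6% of all regions and a CpG island by 73.7%. At Ank3, which encodes the membrane adaptor ankyrin-G, the region inside the gene had 1 on 60% fat and 13.5 on 10% fat in sham hearts, and 1 on 60% fat and 1.33 on 10% fat in TAC hearts, a ratio of -2.28 (-8.66 to -0.57). The sham library on 10% fat stood alone there.

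Slc25a4, the adenine nucleotide translocator of heart mitochondria, had 1.86 on 60% fat and 16 on 10% fat in sham hearts, and 3.43 on 60% fat and 4.29 on 10% fat in TAC hearts, a ratio of -2.00 (-5.53 to -0.27). Arid1a, a subunit of BAF chromatin remodellers, had 1.56 on 60% fat and 12.2 on 10% fat, a ratio of -1.80 (-5.53 to -0.27). Rad21, a subunit of cohesin, had 2.14 on 60% fat and 14.6 on 10% fat, a ratio of -1.74 (-5.44 to -0.16). In these regions, too, the sham library on 10% fat was the highest of the 4. The counting intervals of 9 of the 11 named lower regions excluded the all-region ratio, and those of Cdc14a (-5.25 to 0.08) and Cyp2j6 (-5.15 to 0.22) included it. The intervals of the named regions, higher or lower, use the signals by which the regions were picked. That exclusion is therefore no separate support for a shift. Dcaf10 behaved differently in the TAC libraries, with 2.33 on 60% fat and 16.9 on 10% fat in sham hearts but 12.1 on 60% fat and 4.78 on 10% fat in TAC hearts.

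**Figure D3:**
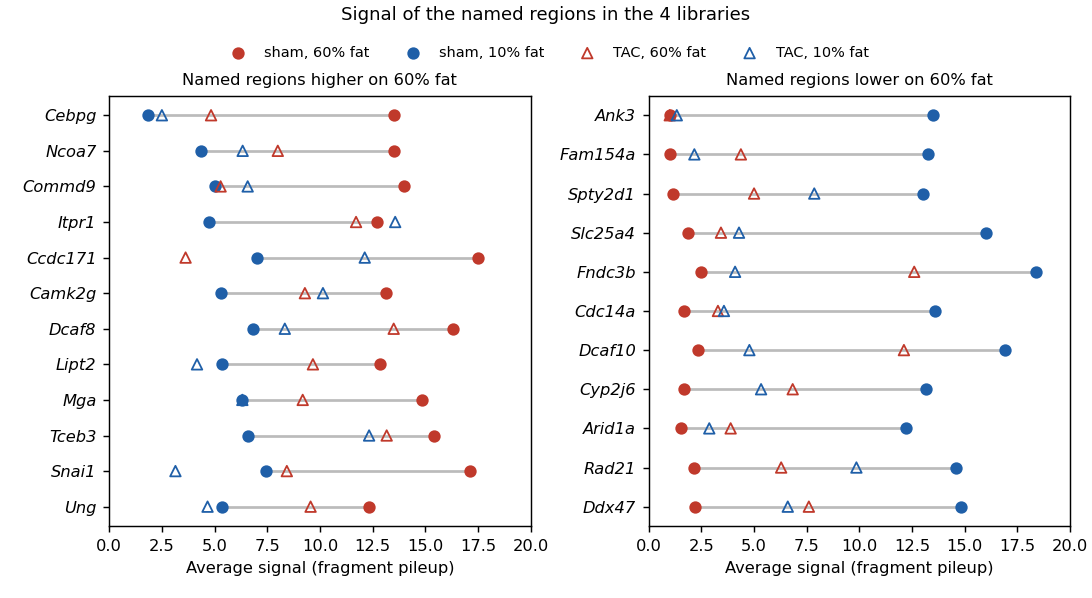
Average signal (fragment pileup, horizontal axis) of the 12 named higher (left) and 11 named lower (right) regions in sham hearts on 60% and 10% fat (filled circles joined by a line) and in TAC hearts on 60% and 10% fat (open triangles). The regions were chosen by the sham contrast, which sets 12.3 to 17.5 against 1.83 to 7.43 on the left and 1 to 2.5 against 12.2 to 18.4 on the right; TAC signals run from 2.5 to 13.6 on the left and from 1 to 12.6 on the right. At Mga the TAC triangle for 10% fat lies on the sham circle for 10% fat.

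The regions with the highest signal on 60% fat were not the most shifted ones in every case. The region at Rps26, a protein of the small ribosomal subunit, had 23 on 60% fat and 28.3 on 10% fat in sham hearts, and 19.6 on 60% fat and 23.7 on 10% fat in TAC hearts, and was called in all 4 libraries. Its centred ratio was 0.28 (-0.42 to 1.02). The region assigned to Stk30 and Zfp839 also had 23 on 60% fat but 5.83 on 10% fat, a ratio of 2.39 (1.17 to 4.10), and was called in the sham 60% fat library alone. The region 144 bp upstream of Srsf2, a splicing factor, had 22 on 60% fat and 13.9 on 10% fat, a ratio of 1.20 (0.44 to 2.32). Klhl18 with Kif9 had 21.6 on 60% fat and 16.9 on 10% fat, and Zfp672 with Sh3bp5l had 21.2 on 60% fat and 11 on 10% fat. These last regions had ratios of 0.91 (0.11 to 1.98) and 1.46 (0.79 to 2.39).

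Genes were then read by their role, with a gene's value taken as the mean centred ratio over its regions. Of all 5134 genes with a region, 344 (6.7%) were 2-fold higher and 264 (5.14%) were 2-fold lower, with a median of 0.03. The 758 genes on the lists described here counted 36 higher (4.75%) and 36 lower (4.75%), with a median of 0.01. Over the 32 functional lists with at least 5 genes, the medians ran from -0.38 to 0.22, and 17 of them were above 0. The interval of the median lay wholly above 0 for 1 list, the zinc finger proteins, and wholly below 0 for 0 lists. With only the regions whose higher signal reached its median, that list's median was -0.04 over 52 genes. A region can be assigned to several genes. Of the 72 list genes that were 2-fold higher or lower, 44 had a region within 1000 bp of their own start.

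Genes that bring fatty acids into mitochondria and oxidize them had few members beyond 2-fold. Of the 40 genes of the carnitine shuttle and beta-oxidation list, 19 had a region, 1 was 2-fold higher (5.26%), 0 were lower, and the median was -0.08. The higher one was Cpt1b, the muscle carnitine palmitoyltransferase of the mitochondrial outer membrane, with 10.4 on 60% fat and 6.64 on 10% fat in sham hearts and 11.7 on 60% fat and 17.1 on 10% fat in TAC hearts. Its region, with a ratio of 1.15 (0.18 to 2.31), lay 3842 bp upstream of Cpt1b and 223 bp into Chkb, a choline kinase gene, and it was called in both TAC libraries and in neither sham library. Cpt1a, the isoform that PPARalpha induces in many tissues, had 5 on 60% fat and 12.9 on 10% fat, a ratio of -0.64 (-1.86 to 0.34). Cpt2, the carnitine palmitoyltransferase of the inner membrane, had 6.43 on 60% fat and 15.6 on 10% fat, a ratio of -0.58. So the carnitine palmitoyltransferases lay on both sides of the all-region median. Acadm, the medium-chain acyl-CoA dehydrogenase, had -0.72 through a region at the start of Rabggtb, 31269 bp past its own start. Hadha and Hadhb, the subunits of the trifunctional protein, shared a promoter region at 0.03 with 7.36 on 60% fat and 11.1 on 10% fat. Ech1, an auxiliary enzyme for unsaturated fatty acids, had the highest signal of the list, with 14.6 on 60% fat and 22.3 on 10% fat, and a ratio near 0.

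Targets of PPAR and of fatty acids lay on both sides of the median. Of 26 such genes 8 had a region, 1 was higher (Cpt1b again), 0 were lower, and the median was 0.19. Over the 10 distinct regions of these genes the median was -0.03. Ucp2 and Ucp3, uncoupling proteins of the inner membrane, shared a region 11 bp upstream of Ucp2, with 14.5 on 60% fat and 14.3 on 10% fat in sham hearts and 9.67 on 60% fat and 12 on 10% fat in TAC hearts. That region had a ratio of 0.59 (-0.45 to 1.95). Among 6 of 23 uptake and activation genes with a region, 0 were 2-fold higher and 0 lower. Lpl, which frees fatty acids from lipoproteins, was the highest of them at 0.92 (10.8 on 60% fat and 8.33 on 10% fat), in a region 28348 bp past its start. Acsl1, the main heart acyl-CoA synthetase, was the lowest at -0.96, with 3.5 on 60% fat and 12 on 10% fat in sham hearts but 14.8 on 60% fat and 5.33 on 10% fat in TAC hearts. Cd36, the fatty acid transporter, had a mean of -0.70 over 5 regions inside the gene, which ran from -1.53 to 0.08.

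Lipid storage and sphingolipid genes had single members beyond 2-fold. Of 25 triglyceride and lipid droplet genes 8 had a region, with a median of 0.07, 1 higher and 0 lower. The higher one was Hilpda, an inhibitor of the lipase ATGL on lipid droplets and a fatty acid induced gene, with 11.5 on 60% fat and 7.08 on 10% fat in sham hearts and 11.3 on 60% fat and 7.92 on 10% fat in TAC hearts, a ratio of 1.20 (0.26 to 2.45) at 60 bp past its start. Dgat2, which makes triglycerides, had a high signal and no shift, with 16.8 on 60% fat and 25.8 on 10% fat and a ratio of -0.02. Of 26 sphingolipid genes 8 had a region, with a median of 0.02, 1 higher and 2 lower. Sptssa and Sptlc2 both encode parts of serine palmitoyltransferase, the first enzyme of the pathway, and their promoter regions were opposed. Sptssa had 11.5 on 60% fat and 5.23 on 10% fat, a ratio of 1.58 (0.67 to 3.17). Sptlc2 had 4 on 60% fat and 15.6 on 10% fat, a ratio of -1.16. Degs1, the dihydroceramide desaturase, had 1.57 on 60% fat and 7.57 on 10% fat, also -1.16. Among 10 of 25 lipogenesis and elongation genes with a region, Ptplb, a 3-hydroxyacyl-CoA dehydratase of fatty acid elongation, had 1.35 (0.20 to 2.83), with 14.7 on 60% fat and 8.14 on 10% fat. Tecr, which acts after it in the elongation cycle, had -0.80.

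Of 38 oxidative phosphorylation genes with a region, 3 were 2-fold higher (7.89%) and 0 lower, with a median of 0.08 and 20 of 38 above 0. Uqcrh, a subunit of complex III, had 20.6 on 60% fat and 12 on 10% fat in sham hearts, and 15.1 on 60% fat and 19.8 on 10% fat in TAC hearts, a ratio of 1.31 (0.42 to 2.57) at a promoter shared with Lrrc41. Ndufa12, a subunit of complex I, had 11.7 on 60% fat and 4.82 on 10% fat, a ratio of 1.70 (0.87 to 3.09) from 27.4 estimated fragments on 60% fat and 11.3 on 10% fat. Both lay within 1000 bp of the start of their gene and were called in the sham library on 60% fat and not in that on 10% fat. The third gene, Atp5e at 1.71, was named through regions 8929 and 9279 bp from its start, at the promoter of Slmo2. Of 40 pyruvate dehydrogenase and TCA cycle genes 17 had a region, with a median of 0.22, 2 higher and 0 lower. The higher ones were Got2, an aminotransferase of the malate-aspartate shuttle, with 4.17 on 60% fat and 2.83 on 10% fat, and Pcx, whose region lay at the promoter of Rce1. Dlat, the acetyltransferase of pyruvate dehydrogenase, was the lowest at -0.89, with 3.62 on 60% fat and 11.7 on 10% fat.

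Of 30 glycolysis and glucose uptake genes 14 had a region, with a median of 0.06, 0 higher and 1 lower. Pygm, the muscle glycogen phosphorylase, was the lower one at -1.10, through a region 1211 bp upstream of Rasgrp2 with 3.71 on 60% fat and 14 on 10% fat. Pkm, the pyruvate kinase of muscle, was the highest at 0.85, with 10.1 on 60% fat and 8.18 on 10% fat. Among mitochondrial carriers of the SLC25 family, 2-fold genes were all lower, but they were few. Of 15 with a region 3 were 2-fold lower (20%, against 5.14% of all genes) and 0 higher. The median was -0.20 with an interval that included 0 (-0.87 to 0.22). The lower ones were the translocators Slc25a4 (-2.00) and Slc25a5 (-1.48) and the carrier Slc25a53 (-1.38). Of the 19 distinct regions of this list, 10 were called on 10% fat only and 1 on 60% fat. Over all 3885 regions these counts were 1864 and 600. Slc25a5 had 1.43 on 60% fat and 9.11 on 10% fat in a region 12373 bp past its start, and Slc25a53 had 2.71 on 60% fat and 13.4 on 10% fat; both lie on the X chromosome, described below.

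Calcium handling genes held the highest ratio of all regions, at Pln, and had members beyond 2-fold on both sides. Of 48 such genes 16 had a region, 3 were higher (18.8%) and 3 lower (18.8%), with a median of -0.27 (-0.59 to 0.88). Of all genes, 6.7% were higher and 5.14% lower. Over the 20 distinct regions of the list the median was 0.05. Beside Pln and Itpr1, the higher one was Camk2d, the main heart isoform of CaMKII, at 1.06 over 2 regions; the region 85 bp past its start had 12.1 on 60% fat and 8.57 on 10% fat in sham hearts. The lower ones were Kcna5, Jph2 and Calm2. Kcna5, an atrial potassium channel, had 2.36 on 60% fat and 14 on 10% fat in sham hearts, and 4.18 on 60% fat and 3.11 on 10% fat in TAC hearts, a ratio of -1.58 (-3.82 to -0.26). Jph2, which ties the sarcoplasmic reticulum to the T-tubule, had 2.44 on 60% fat and 12 on 10% fat, a ratio of -1.34, and Calm2, a calmodulin gene, had 3.6 on 60% fat and 15.6 on 10% fat, a ratio of -1.28. In all of these the sham library on 10% fat was the highest of the 4. Of the 20 distinct regions of the list, 5 were called on 60% fat and 12 on 10% fat only. Over all 3885 regions these counts were 600 and 1864. Cacna1c, the pore subunit of the L-type calcium channel, had -0.57, and Calr, the calcium store protein calreticulin, 0.16.

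Sarcomere and hypertrophy genes with a region lay below the all-region median more often than above it, but the intervals of both list medians included 0. Of 42 sarcomere and Z-disc genes 10 had a region, with 0 higher, 2 lower and a median of -0.28 (-1.07 to 0.41). Ttn, the giant spring protein titin, had 2.71 on 60% fat and 11.7 on 10% fat in sham hearts, and 1 on 60% fat and 2.43 on 10% fat in TAC hearts, a ratio of -1.20 in a region inside the gene whose counting interval included the all-region ratio. Synpo2 had 3 on 60% fat and 11.5 on 10% fat, a ratio of -1.07. Myh6, the adult myosin heavy chain of mouse heart, had 6.43 on 60% fat and 12.3 on 10% fat, a ratio of -0.27 in a region it shares with Myh7. Of the 12 distinct regions of this list, 7 were called on 10% fat only and 0 on 60% fat. Over all 3885 regions these counts were 1864 and 600. Of 42 hypertrophy genes 13 had a region, with 0 higher, 1 lower and a median of -0.38 (-0.54 to 0.28). The lower one was Srf, printed above, with 2.5 on 60% fat and 13.3 on 10% fat in sham hearts, and 8.7 on 60% fat and 5.2 on 10% fat in TAC hearts, a ratio of -1.46 (-3.62 to -0.02). Rcan1, a feedback inhibitor of calcineurin, was the highest at 0.64. Of the 20 distinct hypertrophy regions, 13 were called on 10% fat only and 2 on 60% fat. Among regions called in a TAC library, the median was 0.38 over 5 sarcomere regions and 0.09 over 11 hypertrophy regions. Over all 2615 such regions it was 0.16.

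Regulators of metabolism and time were spread widely. Of 43 metabolic nuclear receptor and coregulator genes 22 had a region, with 0 higher, 1 lower and a median of -0.11. The lower one was Ppara by its label, but its region lay 246 bp upstream of Cdpf1 and 76379 bp past the start of Ppara. It had 3.29 on 60% fat and 13.3 on 10% fat, a ratio of -1.16. Of 41 genes of acetyl-CoA supply and histone acetylation 19 had a region, with 1 higher, 0 lower and a median of -0.08. Ep300, the acetyltransferase p300, was the higher one at 1.11 over 2 regions with low signal in both sham libraries, 3.53 on 60% fat and 2.08 on 10% fat, against 6.88 on 60% fat and 13.7 on 10% fat in TAC hearts. Its partner Crebbp had 13.7 on 60% fat and 14.1 on 10% fat, a ratio of 0.53. Of 24 clock genes 13 had a region, with 2 higher (15.4%, against 6.7% of all genes), 0 lower and a median of 0.01. Cry2, a repressor of the clock, had 19 on 60% fat and 11 on 10% fat in sham hearts, and 6.5 on 60% fat and 14.8 on 10% fat in TAC hearts, a ratio of 1.31 (0.19 to 2.69). Per3, another repressor, had 10.4 on 60% fat and 6 on 10% fat, a ratio of 1.27. The activator Arntl had -0.31 and the period gene Per1, with 6 regions from -0.82 to 0.39, a mean of -0.12. Glucocorticoid responsive genes had a median of -0.37 over 12 of 18, with 0 higher and 2 lower. The lower ones were the metallothioneins Mt1 and Mt2, which share a region 185 bp upstream of Mt1 with 4 on 60% fat and 16.1 on 10% fat. Fkbp5, a chaperone of the glucocorticoid receptor, was the highest at 0.86.

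Stress and protein quality genes had few members beyond 2-fold. Among 24 of 42 heat shock and chaperone genes with a region and 23 of 42 insulin, mTOR and FoxO genes, 0 were 2-fold higher and 0 lower, with medians of 0.13 and 0.01. Of 22 unfolded protein and integrated stress genes 1 was higher and 2 lower, with a median of -0.06. The lower ones were Sel1l, part of the ubiquitin ligase that clears misfolded proteins from the endoplasmic reticulum, at -1.24, and Ern1, the stress sensor IRE1, at -1.10. Ern1 had 2.67 on 60% fat and 10.7 on 10% fat in sham hearts, and 19 on 60% fat and 6.17 on 10% fat in TAC hearts. Of 21 autophagy and lysosome genes 1 was higher and 2 lower, with a median of 0.01. Beside Atg14 the lower one was Bnip3, a receptor of mitophagy, at -1.21, through a region 9879 bp upstream of its start. Atg3, the enzyme that attaches lipid to LC3, was higher at 1.17 (0.25 to 2.30), with 14 on 60% fat and 8.91 on 10% fat. Of 21 antioxidant genes 2 were higher and 2 lower, with a median of -0.02. The higher ones were Txn2 and Txnrd1, of the thioredoxin system. Txnrd1 had its region 24974 bp past its start, and Txn2 rested on 42.6 fragments on 60% fat and 29.2 on 10% fat, a ratio of 1.07 (0.49 to 1.94). Of 27 immediate early genes 0 were higher and 1, Srf, was lower, with a median of 0.10. Of 10 inflammation and NF-kB genes 0 were higher and 0 lower.

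Large housekeeping families sat close to the median of all genes. Cytosolic ribosomal proteins had a median of -0.05 over 48 genes, with 1 higher and 0 lower, mitochondrial ribosomal proteins -0.01 over 35, with 1 higher and 0 lower, and splicing and RNA polymerase II genes 0.00 over 45, with 2 higher and 0 lower. Translation factors and tRNA synthetases had 0.04 over 47, with 1 higher and 2 lower, and cyclins, CDKs and other cell division genes 0.17 over 40, with 0 higher and 2 lower. Among 22 proteasome genes the median was 0.04, and Psmb4, a subunit of the core particle, was 2-fold lower with 1.63 on 60% fat and 14.8 on 10% fat, a ratio of -2.01 (-5.53 to -0.27). The 38 histone genes lay in 20 distinct regions with a median of -0.06, and the 4 lower ones share 1 region, 873 bp upstream of Hist1h3e and assigned to Hist1h1d as well, at -1.64. Zinc finger protein genes had the most members, 114, with 12 higher (10.5%) and 4 lower (3.51%), against 6.7% and 5.14% of all genes. Their median was 0.13 (0.04 to 0.24), which became -0.04 over the 52 genes with regions of higher signal. The 12 ran from Zfp846 at 1.07 to Zfp839 at 2.39 and included Zbtb48, a telomere-binding protein, with 14.5 on 60% fat and 7.17 on 10% fat. Of the 4, Zkscan3, a repressor of autophagy genes, was the lowest at -1.49.

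**Figure D4:**
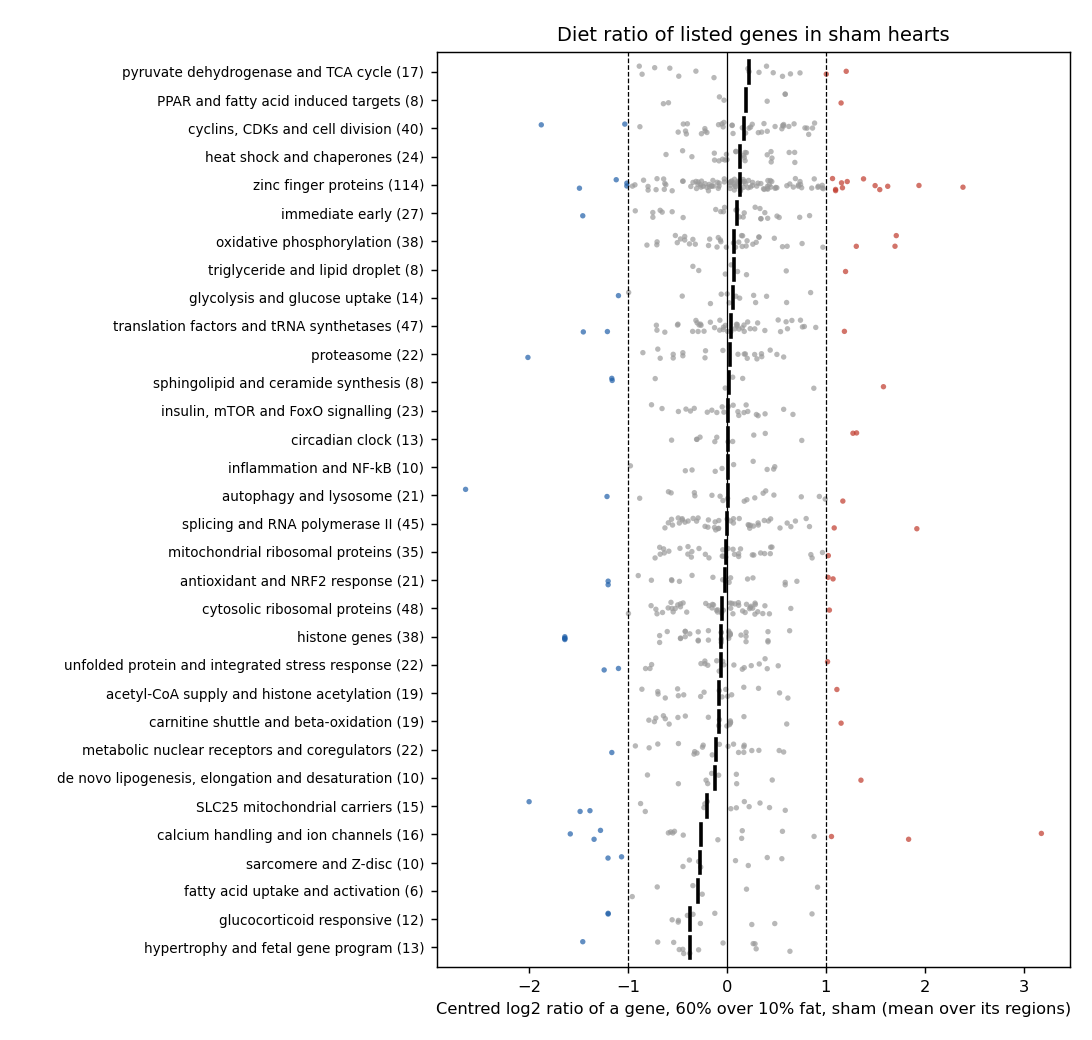
Centred log2 ratio of each listed gene, 60% over 10% fat in sham hearts (horizontal axis, mean over the regions of a gene), in 32 functional lists with the number of genes in brackets. Points at or beyond the dashed 2-fold lines are red where higher and blue where lower, points are spread vertically for sight only, and black bars are list medians, which run from -0.38 to 0.22.

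Markers of heart cell types had few regions, so they give little hold on the cell content of the libraries. Of 14 cardiomyocyte markers 4 had a region (Myh6, Myh7, Ttn and Pln), and Tnnt2, Actc1 and Ryr2 were among the 10 with none. Summed over their 4 regions the signal was 26.8 on 60% fat and 37.7 on 10% fat in sham hearts, and 12.7 on 60% fat and 15.6 on 10% fat in TAC hearts. Of 12 endothelial markers 2 had a region, and both were 2-fold lower: Esam at -1.44, with 2.11 on 60% fat and 11.6 on 10% fat, and Kdr at -1.18, with 3.57 on 60% fat and 14.4 on 10% fat. Their summed signal was 5.68 on 60% fat and 26.0 on 10% fat in sham hearts, and 8.64 on 60% fat and 7 on 10% fat in TAC hearts. Of 10 smooth muscle and pericyte markers 2 had a region, Cnn1 at -1.02, through a region 17924 bp past its start, and Smtn at -1.0. Over their 3 regions the signal was 13.8 on 60% fat and 46 on 10% fat in sham hearts, and 19.4 on 60% fat and 22.3 on 10% fat in TAC hearts. All 5 of these vascular regions were called on 10% fat only, so they went with that call like the 2-fold lower regions in general. That call was carried by 1864 of all 3885 regions. Pecam1 and Cdh5 had no region, nor had Acta2 and Myh11. Fibroblasts (Vim at 0.10), macrophages (Cd68 at 0.12), adipocytes (Fabp4 at -0.25) and liver (Apoa2 at 0.57) had 1 marker each. The 3 Cd68 regions lay 3291 bp past and 5339 and 6431 bp upstream of its start, near the starts of Mpdu1 and Eif4a1. The Apoa2 region lay 2424 bp upstream of its start and 116 bp upstream of Tomm40l. The part of cell content in the ratios was not tested.

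The share of 2-fold regions differed by the kind of region. Of 2711 regions with a promoter and a CpG island, 194 (7.16%) were higher and 127 (4.68%) lower, with a median of 0.03. Of 497 regions with a promoter and no island, 50 (10.1%) were higher and 51 (10.3%) lower. Of 152 regions with an island and no promoter, 13 (8.55%) were higher and 12 (7.89%) lower, near the shares of all regions. Of 181 regions with no gene, promoter or island, 17 (9.39%) were higher and 19 (10.5%) lower. Of 344 regions with an assigned gene but neither promoter nor island, 47 (13.7%) were higher and 57 (16.6%) lower, with a median of -0.10 (-0.26 to 0.03). These last regions were also thinner, with a median of 7.25 estimated fragments on 60% fat and 13.9 on 10% fat, against 11.5 and 17.2 in the same order at island promoters. Length went the same way. The 972 shortest regions, 203 to 239 bp, held 142 higher and 92 lower ones, and the 971 longest, 433 to 1701 bp, 36 higher and 15 lower.

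By chromosome, the medians of the 19 chromosomes with at least 50 regions ran from -0.07 on chromosome 5 to 0.21 on chromosome 12. The X chromosome lay outside that range. Its 32 regions had a median of -0.41 (-0.61 to -0.04), and 23 of the 32 were below 0. Signals there were 4.82 on 60% fat and 10.95 on 10% fat in sham hearts, while the diet ratio in TAC hearts had a median of 0.02. All samples are labelled male. Of the 32 regions 2 were 2-fold higher and 2 lower.

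Several regions of a gene often disagreed. Of 1062 genes with at least 2 regions, 624 (58.8%) had regions on both sides of 0, and 12 had a region 2-fold higher together with one 2-fold lower. Acy1, an aminoacylase, spanned -1.03 to 2.38, Nptn, a cell adhesion molecule, -1.20 to 2.12, and Hnrnpf, a splicing regulator, -1.19 to 1.20.

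The same diet contrast in TAC hearts shares no library with the one in sham hearts, so the values can be set side by side. The median log2 ratio of 60% over 10% fat was -0.14 (-0.17 to -0.12) in TAC hearts, nearer to 0 than the -0.57 in sham hearts. After centring, 368 regions (9.47%) were 2-fold higher and 307 (7.9%) lower in TAC hearts. The measured ratios were not correlated between the operations. Across 3885 regions the centred ratios had a Pearson correlation of -0.00066 and a Spearman correlation of -0.014; the regions share the table's calls, which came from the same 4 libraries. Of the 321 regions higher in sham hearts, 45 (14.0% of them, and 12.2% of the 368) were higher and 40 (12.5%, and 13.0% of the 307) were lower in TAC hearts. Of the 266 regions lower in sham hearts, 18 (6.77%, and 4.89% of the 368) were higher and 16 (6.02%, and 5.21% of the 307) were lower in TAC hearts. The median TAC ratio was 0.07 (-0.05 to 0.21) in the higher and 0.06 (-0.05 to 0.17) in the lower regions.

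Single named regions show both outcomes. Of the 12 named higher regions, 3 were 2-fold higher in TAC hearts too (Lipt2, Snai1 and Ung) and 1, Ccdc171, was 2-fold lower. Of the 11 named lower regions, 0 were 2-fold lower in TAC hearts and 2, Fndc3b and Dcaf10, were 2-fold higher. Lipt2 had 9.67 on 60% fat and 4.17 on 10% fat in TAC hearts, a centred ratio of 1.19. Ung, the uracil DNA glycosylase of base excision repair, had 12.3 on 60% fat and 5.33 on 10% fat in sham hearts, and 9.56 on 60% fat and 4.67 on 10% fat in TAC hearts, ratios of 1.65 and 1.04. In Ung and Lipt2 both libraries on 60% fat thus stood above both on 10% fat. The same held at Snai1, Cebpg, Ncoa7, Dcaf8, Mga and Tceb3, but not at Commd9, Itpr1, Ccdc171 and Camk2g. The sham part of that order was set by how these regions were picked.

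**Figure D5:**
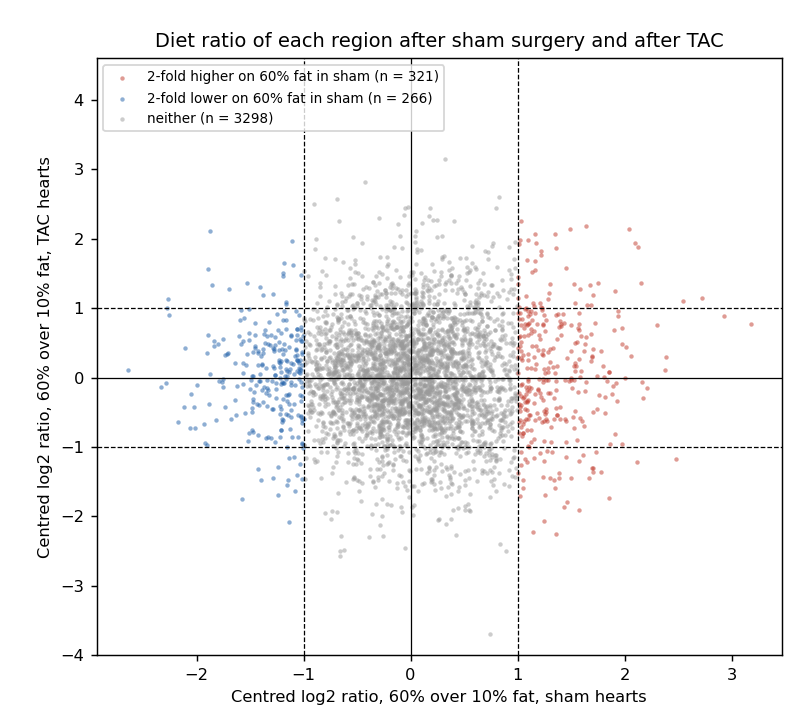
Centred log2 ratio of 60% over 10% fat for each of 3885 regions in sham hearts (horizontal axis) and in TAC hearts (vertical axis), with dashed lines at 2-fold. The cloud has no slope (Spearman correlation -0.014), and the regions 2-fold higher (red) and lower (blue) in sham hearts have TAC medians of 0.07 and 0.06.

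The promoter DNA of the 2-fold regions was searched for short letters known from promoters. Of the regions, 2182 (56.2%) overlapped a RefSeq promoter window, with 49.2% of the higher and 40.6% of the lower ones. The windows counted 207 in higher regions, 135 in lower regions, 2890 in all regions and 32851 in RefSeq as a whole, and letters were searched on both strands. The GC box GGGCGG stood in 66.2% of windows in higher regions, 74.8% in lower regions, 69.5% in all regions and 35.7% of RefSeq. The ETS letters CCGGAAG stood in 27.5%, 27.4%, 27.6% and 8.86% of these sets in the same order. Both directions thus held these letters about as often as any region and more often than RefSeq promoters as a whole. The E-box CACGTG, read by clock and MYC factors, stood in 11.6% of windows in higher regions, 20.7% in lower regions, 12.4% in all regions and 7.15% of RefSeq. TATAAA stood in 5.31%, 10.4%, 6.82% and 13.6% in that order. In regions called in the sham 60% fat library alone of the 4, the E-box stood in 19.5% of 82 windows. In those called in the sham 10% fat library alone, it stood in 14.5% of 671 windows. By calls, the larger E-box share was thus on the 60% fat side. The DR1 element, a pair of AGGTCA letters spaced by any 1 base to which PPAR and RXR bind, stood in 0% of the windows in higher, lower and all regions and in 0.0396% of RefSeq. The ERR element TCAAGGTCA, which overlaps the DR1 letters in part, stood in 0%, 0%, 0.138% and 0.423%. These counts say which letters stand in the windows and nothing on binding by a factor.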

How the data were processed

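Anti-ACAA2 ChIP-seq of whole mouse hearts gave 1 library for each of 4 groups, and the sham libraries were compared. Per the submitters' processing notes, reads were mapped to mm10 with BWA and intervals were called with SICER, with no versions given. The authors deposited, for each merged region and library, the average signal (mean fragment pileup), the log2 ratio of it between pairs of libraries without a pseudocount, and whether an interval was called. The sources used here do not give the depth of the libraries or any scaling between them. The pooled input was not analysed here.

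From the deposited signal, log2((60% fat + 1)/(10% fat + 1)) was computed for all 3885 regions and centred on its median. The authors also deposited an estimated count of fragments for the higher library of the pair, with no source for its making. It equals average signal times length over 224 bp, and that constant gave the estimated fragments of each library here, used for sums and counting intervals. Intervals of ratios are exact Clopper-Pearson at 95%, and intervals of medians come from order statistics over regions, which are not replicates. The former use fragments rounded to whole counts with no pseudocount and are centred on the median log2 ratio without one, -0.64. With 1 library per group no test was run. A 2-fold ratio after centring was counted, and a gene's value is the mean over its regions.

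Regions to be named were the 12 highest and 12 lowest centred ratios among regions assigned to a single named gene whose higher signal was at or above the median of 12.2, and the 5 with most signal on 60% fat. Per list, the genes with the highest and the lowest ratio and the 2 with the highest mean signal qualified. Other list genes in the text, among them Cpt1a, Cpt2, Acadm, Hadha, Cd36, Sptlc2 and the other 2-fold genes, were chosen after their values were seen. Members and lists were chosen with earlier results of these data known. Of 5134 gene symbols 5014 matched RefSeq. The steps were tested on simulated data. Python 3.11.15, numpy 2.4.6, pandas 2.3.3, scipy 1.17.1 and matplotlib 3.10.9 were used. A region that the naming rule picks and a marker list are not reported here. Other pseudocounts, scalings, region filters and thresholds were tried.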

Additional observations from a re-analysis of the deposited data

Results flagged for a closer look

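In 8 of the 125 regions named or belonging to a named gene, the diet ratio was at least 2-fold in sham hearts and at least 2-fold the other way in TAC hearts. With 1 library per group that difference was not tested. Many of the 125 were picked by their sham ratio. Over all 3885 regions, 40 were 2-fold higher in sham and lower in TAC hearts, and 18 the reverse. By comparison, 45 were higher and 16 lower in both. Ccdc171 had a centred ratio of 1.78 in sham hearts and -1.36 in TAC hearts, a difference of 3.14; its signal was 17.5 on 60% fat and 7 on 10% fat in sham hearts, and 3.63 on 60% fat and 12.1 on 10% fat in TAC hearts. Fndc3b had -1.90 in sham hearts and 1.56 in TAC hearts, a difference of -3.46; its signal was 2.5 on 60% fat and 18.4 on 10% fat in sham hearts, and 12.6 on 60% fat and 4.1 on 10% fat in TAC hearts. Dcaf10 had -1.85 in sham hearts and 1.33 in TAC hearts, a difference of -3.18. Degs1, the dihydroceramide desaturase, had -1.16 in sham hearts and 1.09 in TAC hearts, a difference of -2.25, and its TAC signals were 16 on 60% fat and 7.86 on 10% fat. The other regions were 1 inside Cd36, with -1.53 in sham hearts and 1.37 in TAC hearts (a difference of -2.89), Got2, with 1.004 in sham hearts and -1.37 in TAC hearts (2.38), Per3, with 1.27 in sham hearts and -1.06 in TAC hearts (2.33), and Ern1, with -1.10 in sham hearts and 1.62 in TAC hearts (-2.72). At Cd36 the signal was 1.33 on 60% fat and 9 on 10% fat in sham hearts, and 3.67 on 60% fat and 1 on 10% fat in TAC hearts. The part of counting error in these differences was not tested.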

How the results depend on the processing

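No paired analysis was possible because each group has 1 library and the labels carry no replicate numbers, and for the same reason no replicate could be left out. The median log2 ratio kept its direction under every alternative: -0.60 with a pseudocount of 0.5, -0.52 with 2, -0.64 with none, -0.49 from peak signal, -0.78 over 1945 regions with the higher signal at or above its median, -0.42 over 2615 regions called in a TAC library and -0.52 over 1406 called in at least 2 libraries. The 321 regions higher became 78 without centring, 107 with the filter on the higher signal, 66 among those called in at least 2 libraries, 164 by the counting interval and 745 at 1.5-fold. They became 128 among TAC-called regions and 59 among regions called in neither sham library, each centred on its own median. The 266 lower became 962 without centring, 58 among TAC-called regions, 28 among those called in at least 2 libraries, 103 by the counting interval and 696 at 1.5-fold. They became 103 and 79 with the own medians of TAC-called regions and of regions called in neither sham library. Centring by summed fragments gave 337 higher and 243 lower, and quantile scaling 292 higher and 276 lower. Recentring on the own median was chosen after seeing the data. Of 32 list medians 25 moved without centring. The others that moved were immediate early genes (0.34, TAC-called), mitochondrial ribosomal proteins (0.25, single-gene regions), histone genes (0.04 by peak signal, 0.03 with at least 2 calls, -0.60 with single-gene regions) and zinc finger proteins (-0.04 with the filter). Of the 125 regions named or belonging to a named gene, those at least 2-fold kept their sign under 7 alternatives. Regions nearer to 0 can change sign without centring, as at Rps26 (-0.29), and 1 of the 125 left its counting interval there. The cause of these moves was not tested. Counts per region limit every ratio, with a median interval width of 2.59 log2 units.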
